A study of Mus musculus with 12 samples.

Results

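Transcripts of 10 genes of the bone morphogenetic protein (BMP) pathway were followed through 4 cell types sorted from E7.25 mouse embryos. They were the ligands Bmp2, Bmp4, Bmp5 and Bmp7, the receptors Bmpr1a and Bmpr2, and the target genes Id1, Id2, Id3 and Msx2. The genes were chosen by name and are 10 of the 38924 genes counted in each library, and all 10 passed the expression filter. All embryos were of the mouse line Foxa2Cre:Rosa26-YFP, in which cells that have expressed Cre from Foxa2, and their descendants, carry a yellow fluorescent protein (YFP). The 4 groups, with 3 libraries each, were Foxa2Cre:YFP+ cardiac mesoderm (ventricular in the labels), Foxa2Cre:YFP- cardiac mesoderm (non-ventricular), EPCAM+ endoderm and KDR+ hematopoietic mesoderm. They are called YFP-positive cardiac mesoderm, YFP-negative cardiac mesoderm, endoderm and hematopoietic mesoderm here. The comparisons asked which BMP genes differ between the cardiac fractions, and between these and the other sorted types.

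BMPs are secreted proteins of the TGF-beta family that bind a complex of type I and type II serine/threonine kinase receptors. The activated type I receptor phosphorylates SMAD1, SMAD5 and SMAD9, which enter the nucleus with SMAD4 and switch on genes such as the Id family. In the gastrulating mouse embryo, BMP4 is needed for mesoderm to form, and BMP signals from neighbouring tissue promote heart cell identity in the mesoderm. Secreted antagonists such as chordin and Cerberus keep ligands from their receptors.

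Levels are given as CPM (reads of a gene relative to all gene reads of its library, scaled by the trimmed mean of M values), with replicates 1, 2 and 3 in that order and means ± SD over 3 libraries. Each gene was tested with edgeR's quasi-likelihood test over all 12 libraries. The p-values were adjusted over 14170 genes by the Benjamini-Hochberg method, and an adjusted p under 0.05 counts as called. Libraries held 4472800 to 7888631 gene counts, so that 3 counts, the limit that a count of 0 allows, stood for 0.380 to 0.671 CPM before scaling. After scaling this limit shifted a little, and 3 counts were 0.723 CPM in hematopoietic replicate 1. The type labels were compared with marker genes. Epcam and Kdr are named in the labels of the sorted fractions, so their levels are no independent check. Epcam lay at 204 to 240 CPM in endoderm and at most at 68.9 CPM elsewhere, and Kdr at 665 to 965 CPM in hematopoietic mesoderm and at 444 to 622 CPM in cardiac mesoderm. A list of 7 cardiac mesoderm markers summed to 554 to 1041 CPM in the cardiac libraries and to 109 to 323 CPM in the others. That list includes Pdgfra, which was also listed as a sort marker. A list of 13 endoderm markers summed to 2173 to 5437 CPM in endoderm and to at most 115 CPM elsewhere. Each was higher in every endoderm library than elsewhere. Most of the endoderm sum was Apob (2524, 1034 and 1483 CPM) and Cubn (1497, 309 and 743 CPM). For 9 hematopoietic and endothelial markers the sums were 1562 to 2509 CPM in hematopoietic mesoderm and at most 406 CPM elsewhere. Etv2 was at 28.2 to 42.6 CPM in hematopoietic and 6.04 to 67.5 CPM in cardiac mesoderm. In hematopoietic replicate 3, Pecam1 and Gata1 were at 0.210 CPM, and Pecam1 was highest in YFP-positive replicate 2 (58.9 CPM). The rest were higher in every hematopoietic library than in any other. Of the cardiac markers, Nkx2-5, which marks later heart progenitors, was at most at 9.05 CPM in the cardiac libraries and higher in some others, at 21.9 and 25.2 CPM in endoderm replicates 1 and 3 and at 49.4 CPM in hematopoietic replicate 1. Foxa2 itself was at 0 in all YFP-negative cardiac libraries and at 0.416, 0 and 5.92 CPM in the YFP-positive ones.

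The difference that passed the test was that of Bmp4, which was 6.22 to 9.20 times lower in endoderm than in each kind of mesoderm. Bmp4 was called in the test for any difference among the 4 types (adjusted p = 0.0123, edgeR), as were 6.03% of all genes tested. The other 9 genes were not called in that test, with adjusted p from 0.0522 for Bmpr1a to 0.986 for Id1. Between the cardiac fractions, 0 of the 10 genes were called.

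The promoters of Bmp4 and Bmp5 are shown because both ligands were lower in every endoderm library than in every cardiac library. RefSeq promoter windows (GRCm38.p6, the 250 bases before the start site) matched 7 of the 10 genes; Bmp2, Bmp7 and Id1 were not matched. The Bmp4 window is chr14:46390670-46390919 on the minus strand and the Bmp5 window chr9:75775115-75775364 on the plus strand, both printed 5′ to 3′ along the gene, with capitals for a match to either of the motifs searched.
Bmp4: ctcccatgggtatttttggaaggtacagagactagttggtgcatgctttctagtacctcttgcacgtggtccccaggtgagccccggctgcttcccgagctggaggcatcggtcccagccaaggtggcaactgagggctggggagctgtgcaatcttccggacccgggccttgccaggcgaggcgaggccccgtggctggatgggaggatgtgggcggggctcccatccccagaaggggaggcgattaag
Bmp5: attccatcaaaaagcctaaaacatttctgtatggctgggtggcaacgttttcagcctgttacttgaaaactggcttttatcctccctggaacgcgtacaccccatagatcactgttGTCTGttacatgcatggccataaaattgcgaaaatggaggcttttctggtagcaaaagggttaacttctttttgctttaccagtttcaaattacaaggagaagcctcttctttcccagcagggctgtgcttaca
The motifs were GGCGCC, a GC-rich element that BMP-activated SMADs can bind, and CAGAC, the SMAD box, each sought on both strands. Bmp5 held 1 CAGAC, read on the opposite strand and starting 134 bases before the start site, and Bmp4 held neither motif. Of the other windows, those of Bmpr1a, Bmpr2 and Id2 held 1 GGCGCC each, that of Id3 held 2 CAGAC and that of Msx2 neither. Across 32851 windows of the same length, 9.59% held GGCGCC and 42.2% held CAGAC. The Bmp5 window is poorer in G and C (42.8%) than the Bmp4 window (63.2%). In 5 of the 7 genes (Bmpr1a, Bmpr2, Id2, Id3 and Msx2) the GENCODE gene begins 294 to 1048 bases upstream of the RefSeq start, so that these windows lie inside the annotated gene. On the GRCm38 assembly the other genes lie at chr2:133552159-133562885 (Bmp2), chr9:75775364-75900310 (Bmp5), chr2:172868012-172940321 (Bmp7), chr14:34410734-34503341 (Bmpr1a) and chr1:59763400-59879014 (Bmpr2). The targets lie at chr2:152736251-152737410 (Id1), chr12:25093799-25097140 (Id2), chr4:136143497-136145755 (Id3) and chr13:53466884-53473074 (Msx2).

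Among the ligands, Bmp4 encodes the BMP that the early embryo needs to make mesoderm. Its gene lies on chromosome 14 (46383520 to 46390669, minus strand, GRCm38). Gm15217 and Gm15222, on the other strand, share 89 exon bases with it in total. Gm15217 was at 0 reads, and Gm15222 at 1 to 65 in the cardiac and 0 to 2 in the other libraries. Without a stated strand setting, reads there cannot be told apart. In YFP-positive cardiac mesoderm Bmp4 was read at 108, 189 and 94.8 CPM, and in YFP-negative cardiac mesoderm at 192, 152 and 135 CPM. In hematopoietic mesoderm it was read at 136, 168 and 275 CPM, and in endoderm at 8.91, 16.6 and 37.3 CPM. Every endoderm library lay below every mesoderm library, while the 3 mesoderm types overlapped. The means ran from 193 ± 72.8 CPM in hematopoietic mesoderm through 160 ± 29.0 and 131 ± 51.1 CPM in YFP-negative and YFP-positive cardiac mesoderm to 20.9 ± 14.7 CPM in endoderm.

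Against endoderm, the log2 fold change of Bmp4 was 2.64 ± 0.49 (SE) in YFP-positive cardiac mesoderm (adjusted p = 0.0166, edgeR). It was 2.93 ± 0.50 in YFP-negative cardiac mesoderm (adjusted p = 0.0105, edgeR). The endoderm minus hematopoietic difference was -3.20 ± 0.50 (adjusted p = 0.00394, edgeR). Bmp4 was the 1 gene of the 10 called in each of these pairs, where 1.54%, 1.31% and 5.65% of all genes were called. The call against hematopoietic mesoderm held in 6 of 6 fits that left out a library of the pair. The call against YFP-negative cardiac mesoderm was lost without endoderm replicate 2 (adjusted p = 0.0662, edgeR). The call against YFP-positive cardiac mesoderm was lost without endoderm replicate 1 (0.0706), endoderm replicate 2 (0.0982) or YFP-positive replicate 2 (0.0727), all adjusted p from edgeR. The 4-type call was lost without endoderm replicate 2 (adjusted p = 0.0727, edgeR). Marker sums differed between some of these libraries. The endoderm list summed to 5437, 2173 and 3229 CPM in endoderm replicates 1, 2 and 3. YFP-positive replicate 2, the highest of its group for Bmp4, also had the highest hematopoietic marker sum of the cardiac libraries (406 CPM against 50.6 to 228 CPM). Epiblast and primitive streak markers summed to 561 to 665 CPM in endoderm and to 86.4 to 410 CPM in the mesoderm libraries. Of the endoderm sums, 346 to 365 CPM was Otx2. Sox2 and Nanog were higher in endoderm than elsewhere, and Pou5f1 overlapped YFP-positive cardiac mesoderm. T was at 196, 228 and 105 CPM in endoderm and at 261, 213 and 374 CPM in hematopoietic mesoderm. The part of hematopoietic, epiblast or streak cells, or of uneven endoderm marker levels, in the Bmp4 values was not tested. In sorted bulk samples, fewer cells that express a gene and less RNA per cell cannot be told apart.

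**Figure D1:**
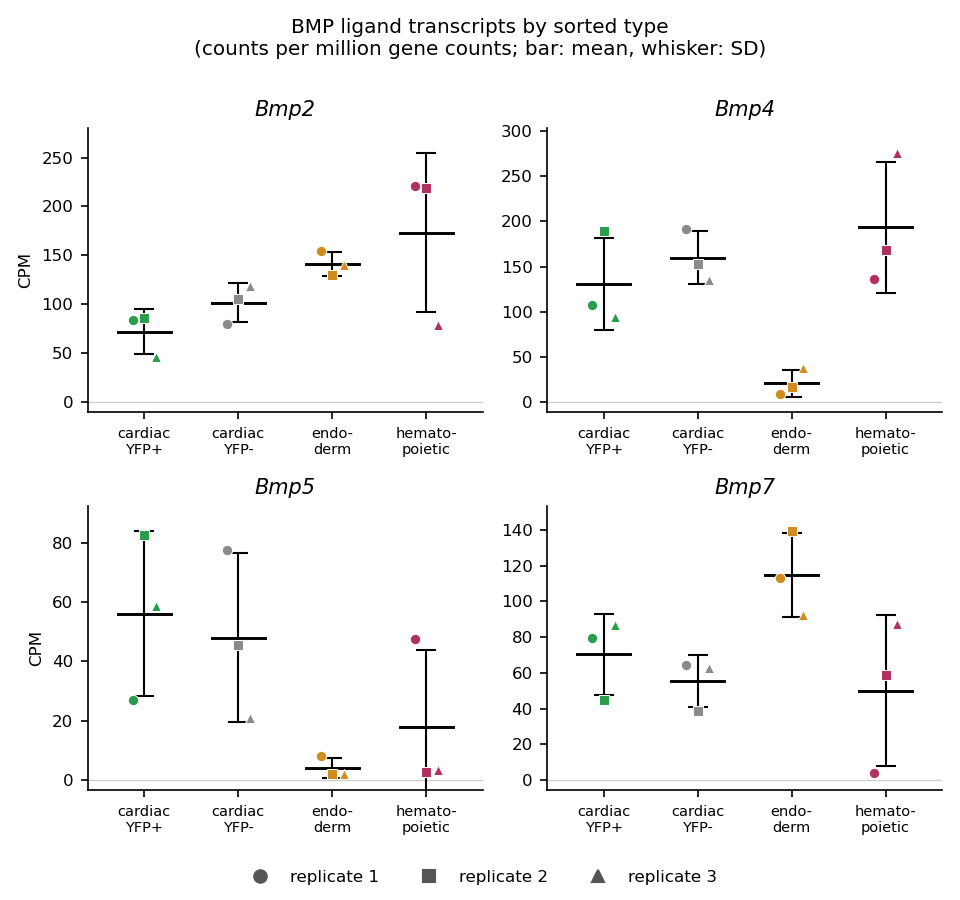
Levels of the 4 BMP ligand transcripts (y axis, CPM) in the 4 sorted types (x axis), 1 point per library with its shape giving the replicate, a bar at the mean and whiskers at 1 SD. Bmp4 lies at 8.91 to 37.3 CPM in endoderm and at 94.8 to 275 CPM in the mesoderm libraries.

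Bmp5, a ligand close in sequence to BMP7, was read at 27.1, 82.6 and 58.8 CPM in YFP-positive and at 77.6, 45.5 and 20.9 CPM in YFP-negative cardiac mesoderm. In endoderm it was read at 8.11, 2.20 and 2.02 CPM, and in hematopoietic mesoderm at 47.7, 2.60 and 3.36 CPM. All 6 cardiac libraries lay above all 3 endoderm libraries, but hematopoietic replicate 1 stood within the cardiac range and 18.4 times above the lowest of its own group. The log2 fold change between YFP-positive cardiac mesoderm and endoderm was 3.77 ± 1.16 and did not pass (adjusted p = 0.118, edgeR). That of YFP-negative cardiac mesoderm was 3.55 ± 1.15 and did not pass either (adjusted p = 0.191, edgeR). DESeq2 called Bmp5 in both pairs (adjusted p = 0.00515 and 0.0137), as did limma voom with library quality weights (adjusted p = 0.00831 and 0.00462). The shares of all genes that these tools called are given with Msx2 below. In the test over the 4 types, Bmp5 was called without hematopoietic replicate 1 (adjusted p = 0.0237, edgeR). An antisense transcript, Gm26903, shares 1878 exon bases with Bmp5 and was counted at 0 to 55 reads, and without a stated strand setting the reads of the 2 genes cannot be told apart there.

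Bmp2, the ligand most closely related to BMP4, had another order of levels. It was read at 221, 219 and 79.2 CPM in hematopoietic mesoderm and at 154, 130 and 140 CPM in endoderm. The YFP-negative cardiac libraries gave 80.3, 106 and 119 CPM, and the YFP-positive ones 84.5, 86.2 and 45.7 CPM. The endoderm libraries lay above all 6 cardiac libraries, while the 2 cardiac fractions overlapped and hematopoietic replicate 3 lay among them. The means were 173 ± 81.4, 141 ± 12.1, 102 ± 19.7 and 72.1 ± 22.9 CPM in that order of types. The log2 fold change of YFP-positive cardiac mesoderm was -1.26 ± 0.39 against hematopoietic mesoderm (adjusted p = 0.114, edgeR) and -0.97 ± 0.38 against endoderm (adjusted p = 0.225, edgeR). Without hematopoietic replicate 3, Bmp2 was called in the test over the 4 types (adjusted p = 0.0253, edgeR).

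Bmp7, a ligand that can pair with BMP2 or BMP4, was read at 113, 139 and 92.6 CPM in endoderm. It was at 79.5, 44.7 and 87.0 CPM in YFP-positive and at 64.7, 38.8 and 62.7 CPM in YFP-negative cardiac mesoderm. The hematopoietic libraries gave 4.10, 58.9 and 87.4 CPM. The 3 endoderm libraries stood above the other 9, and the 3 mesoderm types overlapped. In the 12-library fit no pair passed for Bmp7, and its lowest adjusted p was 0.369, between endoderm and hematopoietic mesoderm (edgeR). Bmp4 and Bmp5 thus had their lowest means in endoderm, where Bmp7 had its highest.

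Bmpr1a, the type I receptor that early mesoderm formation depends on, was read at 603, 588 and 521 CPM in YFP-positive cardiac mesoderm and at 494, 466 and 454 CPM in YFP-negative cardiac mesoderm. It was at 453, 323 and 378 CPM in hematopoietic mesoderm and at 417, 336 and 369 CPM in endoderm. The YFP-positive cardiac libraries were above all 9 others, the YFP-negative ones above the hematopoietic and endoderm ones, narrowly at the nearest point, and the last 2 types overlapped. The log2 fold change of YFP-positive cardiac mesoderm against endoderm was 0.61 ± 0.15 (adjusted p = 0.0598, edgeR). With the replicate number as a block it passed (adjusted p = 0.0489, edgeR). Against hematopoietic mesoderm it was 0.57 ± 0.15 (adjusted p = 0.0705, edgeR). The antisense gene Gm17110 overlaps 290 exon bases of Bmpr1a and was counted at 0 to 46 reads.

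Bmpr2, a type II receptor that also binds other ligands of the family, was read at 187, 147 and 180 CPM in YFP-positive and at 176, 206 and 237 CPM in YFP-negative cardiac mesoderm. It was at 191, 147 and 136 CPM in endoderm and at 446, 184 and 156 CPM in hematopoietic mesoderm. All 4 types overlapped, and hematopoietic replicate 1 stood alone at 446 CPM. No pair passed for Bmpr2, and its lowest adjusted p was 0.213, between endoderm and hematopoietic mesoderm (edgeR).

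Of the target genes, Msx2 followed the order of Bmp5. Msx2 encodes a homeobox repressor that BMP signals switch on in many embryonic tissues. In cardiac mesoderm it was read at 104, 155 and 122 CPM in the YFP-positive and at 145, 93.5 and 121 CPM in the YFP-negative fraction. The endoderm libraries gave 11.5, 9.71 and 7.37 CPM, and the hematopoietic ones 0.723, 16.3 and 79.6 CPM. All cardiac libraries lay above all others, the 2 cardiac fractions overlapped, and so did endoderm and hematopoietic mesoderm. The means were 127 ± 26.0, 120 ± 25.9, 9.51 ± 2.05 and 32.2 ± 41.8 CPM.

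Against endoderm, the log2 fold change of Msx2 was 3.74 ± 0.99 in YFP-positive cardiac mesoderm (adjusted p = 0.0838, edgeR) and 3.65 ± 0.99 in YFP-negative cardiac mesoderm (adjusted p = 0.104, edgeR), so neither was called. The 12-library fit takes 1 spread per gene from all types, and the hematopoietic libraries held 3, 94 and 379 reads of Msx2. In fits of only the 2 types compared, Msx2 was called in both pairs (adjusted p = 0.00298 and 0.000279, edgeR), where 5.03% and 9% of all genes were called. Those fits called 4 of the 10 genes in each pair, Bmp4, Bmp5 and Msx2 in both, Bmpr1a in the YFP-positive and Bmp7 in the YFP-negative comparison. DESeq2 over all libraries also called Msx2 against endoderm in both fractions (adjusted p = 0.000636 and 0.00111), with 4 of the 10 genes and 6.56% of all genes called in the YFP-positive pair and 3 of the 10 and 4.27% in the YFP-negative pair. limma voom with library quality weights called it as well (adjusted p = 0.000409 and 0.000132), with 4 of the 10 genes and 7.97% of all genes, and 4 and 12.8%. In the 4-type test Msx2 was called without hematopoietic replicate 1 (adjusted p = 0.00966, edgeR) and without hematopoietic replicate 3 (adjusted p = 0.00941, edgeR).

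The Id genes encode helix-loop-helix proteins that lack a DNA-binding region and block other factors of that class. Id3 was read at 163, 88.5 and 113 CPM in hematopoietic mesoderm and at 89.7, 107 and 94.8 CPM in YFP-positive cardiac mesoderm. It was at 89.7, 73.4 and 62.9 CPM in YFP-negative cardiac mesoderm and at 71.1, 53.7 and 60.4 CPM in endoderm. The endoderm libraries were below all hematopoietic and YFP-positive cardiac libraries, and overlapped the YFP-negative ones. The endoderm minus hematopoietic log2 fold change was -0.97 ± 0.33 (adjusted p = 0.0903, edgeR; 0.0280 with DESeq2).

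Id1 and Id2 were low and uneven within groups. Id1 was at 31.0, 7.47 and 4.81 CPM in YFP-positive cardiac mesoderm, at 26.8, 29.1 and 16.1 CPM in YFP-negative cardiac mesoderm and at 17.2, 14.2 and 16.3 CPM in endoderm. In hematopoietic mesoderm it gave 265, 14 and 0 reads, which is 63.8, 2.42 and 0 CPM. Endoderm was the even group, and hematopoietic replicates 1 and 3 were the highest and the lowest of all 12 libraries. Id2 was at 51.4, 5.47 and 7.40 CPM in YFP-positive and at 2.35, 14.0 and 1.30 CPM in YFP-negative cardiac mesoderm, at 10.5, 7.51 and 21.3 CPM in endoderm and at 0.482, 2.60 and 6.93 CPM in hematopoietic mesoderm. The groups overlapped for both genes, except that all endoderm libraries were above all hematopoietic ones for Id2, and neither gene was called in any pair (edgeR).

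**Figure D2:**
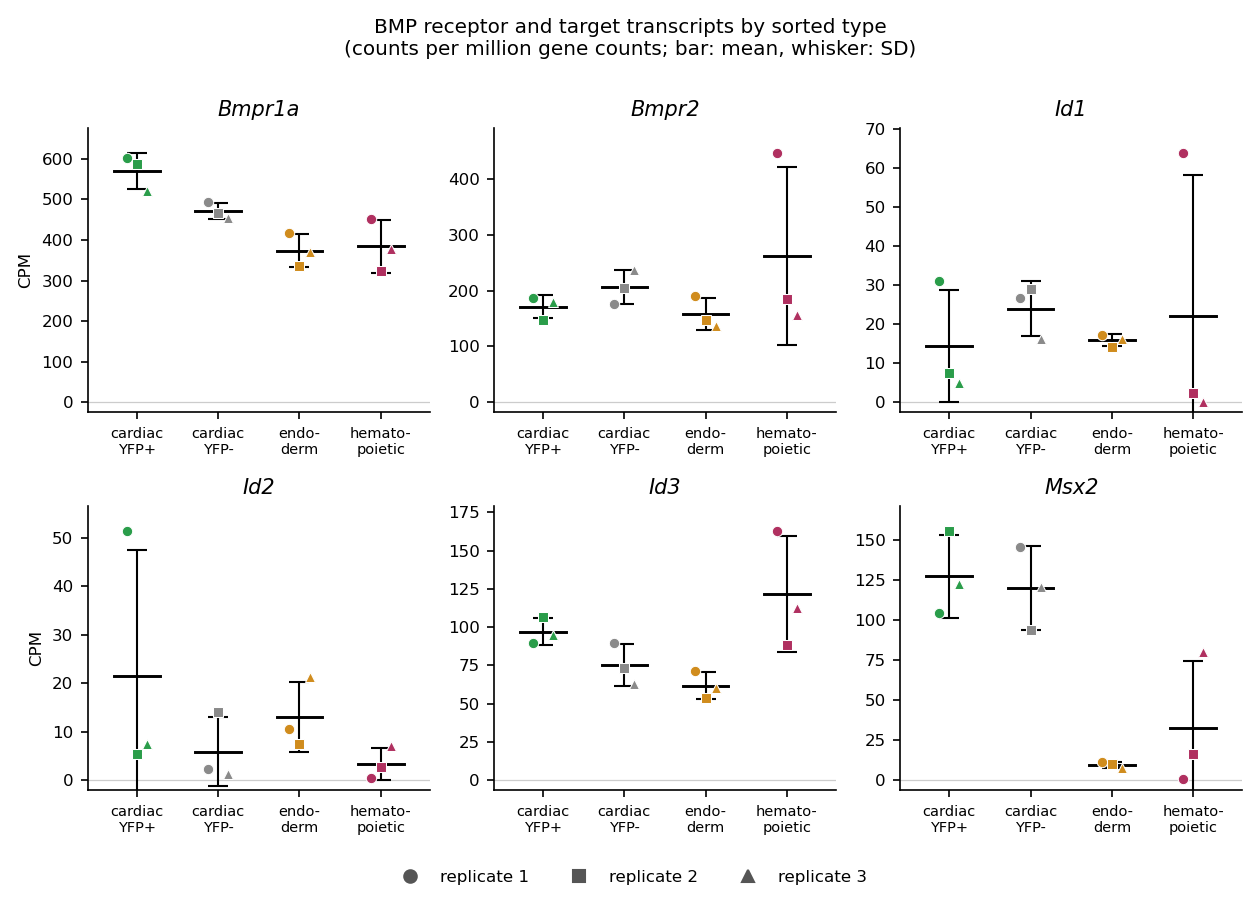
Levels of the 2 receptor and 4 target transcripts (y axis, CPM) in the 4 sorted types (x axis), 1 point per library with its shape giving the replicate, a bar at the mean and whiskers at 1 SD. Msx2 lies at 93.5 to 155 CPM in the cardiac libraries and at 7.37 to 11.5 CPM in endoderm, and hematopoietic replicate 1 is the highest library for Id1 and the only one under 1 CPM for Msx2.

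The unevenness of the hematopoietic libraries was not limited to these genes. Counting genes with at least 100 reads in 1 library of a type and at most 3 in another, Id1 and Msx2 met this in hematopoietic mesoderm, 2 of the 9 members that reached 100 reads there, beside 14% of all genes that did. None of the members met it in YFP-positive cardiac mesoderm (8.61% of all genes), YFP-negative cardiac mesoderm (3%) or endoderm (0.296%). Bmp5 and Bmp7 came near it in hematopoietic mesoderm, in opposite directions. Bmp5 had 198 reads in hematopoietic replicate 1 and 15 and 16 in the other libraries. Bmp7 had 17 reads in hematopoietic replicate 1 and 340 and 416 in the other libraries. Markers of extraembryonic ectoderm, which also makes BMP4, summed to 119 CPM in hematopoietic replicate 1 and to as little as 0.173 CPM in another hematopoietic library. In replicate 1, 118 CPM of this was 1 of the 5 genes, Ascl2, while Elf5, Tfap2c and Esrrb were at 0 and Wnt7b at 0.723 CPM. Hematopoietic replicate 3 summed to 68.3 CPM, of which Esrrb gave 67.8 CPM. In endoderm replicates 1, 2 and 3 the list summed to 26.6, 19.7 and 98.5 CPM, and in replicate 3 all 5 genes had more than 3 reads. Endoderm replicate 3 was also the highest endoderm library for Bmp4, at 37.3 CPM. The part of extraembryonic ectoderm cells in these values was not tested.

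Between the 2 cardiac fractions, 0 of the 10 genes were called and 0% of all genes, and none of the 10 had an unadjusted p under 0.05 (7.49% of all genes did). DESeq2, which gives no adjusted p for Id1, and limma voom called none of the 10 either. The log2 fold changes, YFP-positive minus YFP-negative, of the ligands were -0.50 ± 0.38 for Bmp2, -0.29 ± 0.46 for Bmp4, 0.23 ± 1.04 for Bmp5 and 0.35 ± 0.71 for Bmp7. Their adjusted p-values were 0.870, 0.972, 1 and 0.990 (edgeR). Those of the receptors were 0.27 ± 0.15 for Bmpr1a and -0.27 ± 0.33 for Bmpr2, with adjusted p of 0.721 and 0.958 (edgeR). Of the targets, Id1 was at -0.73 ± 1.45, Id2 at 1.86 ± 1.31, Id3 at 0.37 ± 0.32 and Msx2 at 0.09 ± 0.89, with adjusted p of 0.986, 0.839, 0.897 and 1 (edgeR). How narrow a difference these libraries could bound depended on the gene. The 95% interval of the ratio ran from 0.972 to 1.51 for Bmpr1a and from 0.410 to 1.63 for Bmp4, while that of Id2 ran from 0.506 to 26.0 and that of Id1 from 0.0690 to 5.23. Bmpr1a and Id3 had no overlap between the libraries of the 2 fractions, 2 of the 10 genes beside 12.1% of all genes, and for Id3 the gap was between 89.70 and 89.65 CPM.

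Libraries of YFP-positive cardiac mesoderm and endoderm did not overlap for 7 of the 10 genes (30.3% of all genes) and those of YFP-negative cardiac mesoderm and endoderm for 6 (29.4%). Of these, Bmp4, Bmp5, Bmpr1a and Msx2 had the higher levels in cardiac mesoderm, with Id3 in the YFP-positive fraction, and Bmp2 and Bmp7 in endoderm. Against hematopoietic mesoderm, Bmpr1a and Msx2 did not overlap in either fraction, 2 of the 10 genes beside 14% of all genes in the YFP-positive pair and 18.6% in the other. Endoderm and hematopoietic mesoderm did not overlap for 4 of the 10 (Bmp4, Bmp7, Id2 and Id3), beside 34.3% of all genes. The test called 0 of the 10 genes between YFP-positive cardiac and hematopoietic mesoderm (1.79% of all genes). It called 0 between YFP-negative cardiac and hematopoietic mesoderm (0.593% of all genes). At an unadjusted p under 0.05 (edgeR) there were 2 members in the first of these pairs, beside 19.5% of all genes. In the second there were 0, beside 17.4% of all genes. The median log2 fold change of the 10 genes was 0.63 for YFP-positive and 0.36 for YFP-negative cardiac mesoderm minus endoderm, and -0.60 for endoderm minus hematopoietic mesoderm. The medians over all genes were 0.01, 0.01 and 0.07. The 3 comparisons that involve endoderm share its 3 libraries, and so are not independent of each other.

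**Figure D3:**
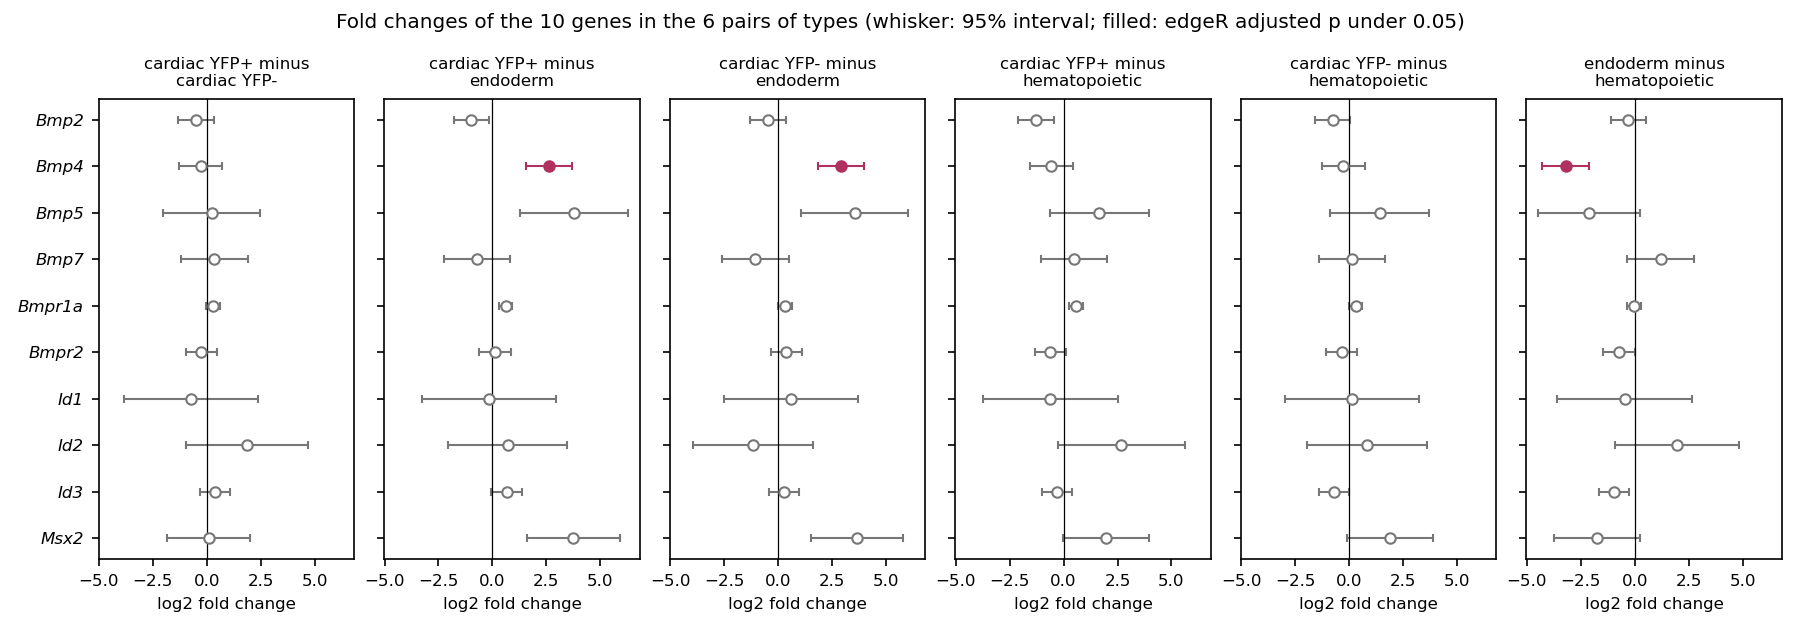
Log2 fold changes of the 10 genes (points, x axis) in the 6 pairs of types (panels), with 95% intervals as whiskers and filled points where the edgeR adjusted p was under 0.05. The filled points are those of Bmp4 in the 3 pairs with endoderm, at 2.64, 2.93 and -3.20.

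Levels of different genes can be compared only per length. Divided by the length of a gene's exons in GENCODE, and averaged over the 12 libraries, the level was 70.9 CPM per kb for Bmpr1a, 56.1 for Bmp4, 49.6 for Id3 and 34.3 for Bmp2. It was 22.0 for Msx2, 18.1 for Bmp7, 16.5 for Id1, 11.1 for Bmpr2, 7.84 for Bmp5 and 4.49 for Id2, all in CPM per kb. Bmpr1a thus stood above Bmpr2 in each type, at 58.9 to 89.8 against 8.78 to 14.6 CPM per kb. Among the ligands, Bmp4 had the highest mean per kb in the 3 mesoderm types (58.1, 71.1 and 86.0 CPM per kb in YFP-positive cardiac, YFP-negative cardiac and hematopoietic mesoderm). In endoderm that place was taken by Bmp2 at 39.8 CPM per kb, followed by Bmp7 at 28.6 and Bmp4 at 9.31 CPM per kb. The exons of Bmpr2 have a joint length of 17983 bases, against 6351 for Bmpr1a, and the coverage along them was not examined.

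**Figure D4:**
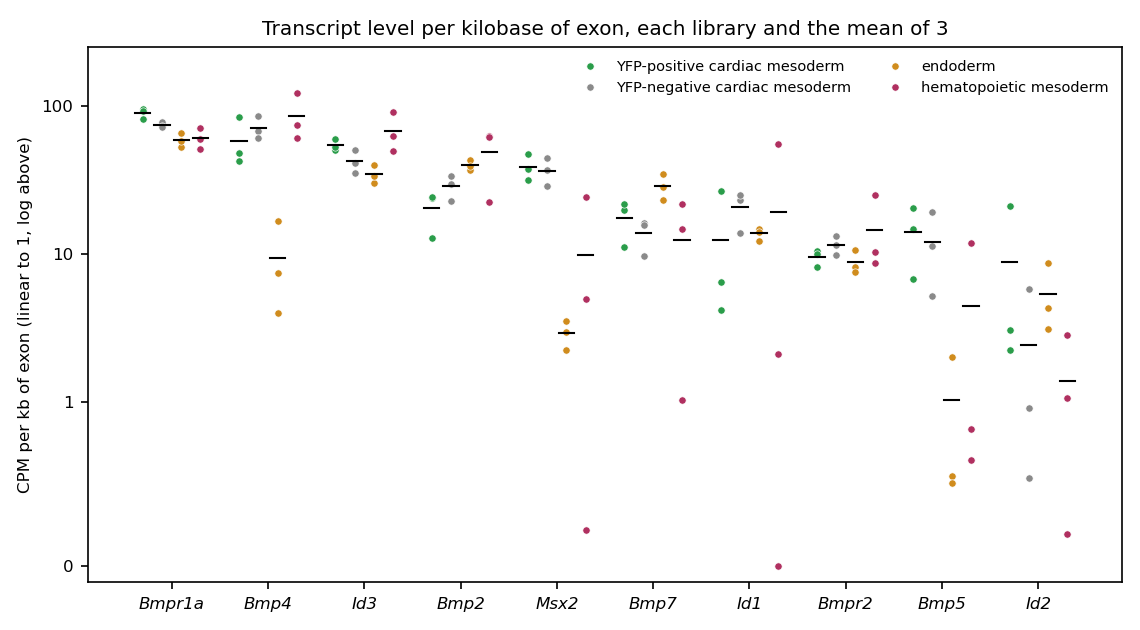
Transcript level per kilobase of exon (y axis, CPM per kb, linear up to 1 and logarithmic above) of the 10 genes in each library, coloured by type, with a bar at the mean of 3, in the order of the mean over 12 libraries. Bmpr1a leads at 70.9 CPM per kb, and the endoderm points of Bmp4, Msx2 and Bmp5 lie below those of both cardiac fractions.

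Of a list of 61 other BMP pathway genes, 43 passed the expression filter. In the test, 6 were higher and 3 lower in YFP-positive cardiac mesoderm than in endoderm, and 5 were higher and 3 lower in YFP-negative cardiac mesoderm. Endoderm minus hematopoietic mesoderm gave 5 higher and 6 lower. Cardiac against hematopoietic mesoderm gave 2 higher in the YFP-positive and 1 lower in the YFP-negative fraction, and the 2 cardiac fractions gave 0. The shares of all genes called in these pairs are those given above. The median log2 fold change of the 43 genes was 0.27 and 0.10 in the first 2 of these pairs and -0.28 in the third.

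Among the 7 tested target genes, 4 were called against endoderm in all 3 pairs, all lower in endoderm: Tbx3, Tbx20, Hand1 and Gata2. Tbx3, a T-box repressor of the outflow and conduction regions of the heart, was at 396 ± 92.8 CPM in YFP-positive and 448 ± 28.3 CPM in YFP-negative cardiac mesoderm, and at 67.2 ± 18.8 CPM in endoderm and 338 ± 121 CPM in hematopoietic mesoderm. Its adjusted p against endoderm was 0.000456, 0.000287 and 0.000720 (edgeR), in the YFP-positive, YFP-negative and hematopoietic pairs in that order, which is kept below. Tbx20, a T-box factor of heart progenitors, was at 522 ± 163 and 389 ± 34.4 CPM in the cardiac fractions, 329 ± 166 CPM in hematopoietic mesoderm and 48.0 ± 3.68 CPM in endoderm. Its adjusted p against endoderm was 0.000183, 0.000374 and 0.000582 (edgeR). Both genes kept all 3 calls whichever of the 12 libraries was left out, and their endoderm libraries, like those of Bmp4, were all below the mesoderm ones.

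Hand1, a basic helix-loop-helix factor of the heart and extraembryonic mesoderm, was at 335 ± 42.8 and 333 ± 24.8 CPM in the cardiac fractions, 182 ± 204 CPM in hematopoietic mesoderm and 17.3 ± 17.3 CPM in endoderm. Its calls (adjusted p = 0.0231, 0.0240 and 0.0325, edgeR) held in 7, 7 and 9 of the 12 fits, and without endoderm replicate 1 the values were 0.141, 0.147 and 0.119. Gata2, a factor of early blood and vessel progenitors, was at 382 ± 7.34 CPM in hematopoietic mesoderm and 1.79 ± 1.35 CPM in endoderm (adjusted p = 0.00156, edgeR), a call that held in 12 of 12 fits. In cardiac mesoderm it was at 4.79, 73.8 and 15.2 CPM in the YFP-positive and 79.6, 54.5 and 18.2 CPM in the YFP-negative fraction, and the calls against endoderm (adjusted p = 0.0427 and 0.0229, edgeR) were lost with the replicate number as a block (0.114 and 0.0608). Without endoderm replicate 1, 2 or 3 the adjusted p was 0.190, 0.181 and 0.0911 in the YFP-positive pair (edgeR). It was 0.136, 0.125 and 0.0610 in the YFP-negative pair (edgeR). Both calls were also lost without some of the libraries of other types. YFP-positive replicate 2, the highest of its group for Gata2, is also the one with 406 CPM of hematopoietic markers, and the part of such cells was not tested.

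Of the 6 intracellular inhibitors tested, 2 were called, both lower in endoderm. Smad6, which BMP signals induce and which blocks the receptor-regulated SMADs, was at 44.2 ± 13.5 and 42.8 ± 15.0 CPM in the cardiac fractions, 46.5 ± 25.6 CPM in hematopoietic mesoderm and 4.39 ± 1.08 CPM in endoderm. It was called lower in endoderm in the 3 pairs (adjusted p = 0.0233, 0.0255 and 0.0133, edgeR). With the replicate number as a block these were 0.0536, 0.0632 and 0.0324, and without endoderm replicate 3 they were 0.150, 0.163 and 0.0762. Smad7, a related inhibitor named here after its values were seen, was at 105 ± 18.0, 79.6 ± 21.0 and 103 ± 68.0 CPM in the mesoderm types, in the same order, and at 20.1 ± 7.68 CPM in endoderm. It was called against YFP-positive cardiac (adjusted p = 0.0354) and hematopoietic mesoderm (adjusted p = 0.0227, edgeR), in 3 and 8 of the 12 fits. The other 4 inhibitors tested, which were Smurf1, Smurf2, Ski and Bambi, were not called in these pairs.

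Of the 10 secreted antagonists and modulators tested, Chrd and Cer1 were called higher in endoderm in all 3 pairs with it. Chrd encodes chordin, which binds BMP2 and BMP4, and gave 309, 644 and 556 reads in endoderm (66.2 ± 17.1 CPM). It gave 1, 0 and 2 reads in YFP-positive cardiac, 0, 0 and 1 in YFP-negative cardiac and 0, 4 and 0 in hematopoietic mesoderm. Its calls (adjusted p = 0.0184, 0.0116 and 0.0133, edgeR) held in 7, 7 and 10 of the 12 fits, and without endoderm replicate 2 the values were 0.109, 0.0662 and 0.0729. Cer1 encodes Cerberus, an antagonist of BMP and Nodal from the anterior endoderm, and was at 478, 387 and 357 CPM in endoderm. It was at 31.2, 10.4 and 67.7 CPM in YFP-positive cardiac mesoderm, at 2.35, 4.76 and 3.77 CPM in YFP-negative cardiac mesoderm and at 5.06, 3.29 and 3.15 CPM in hematopoietic mesoderm. The endoderm libraries lay above all others, and the YFP-positive cardiac libraries above the remaining 6.

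Cer1 was called in the 3 endoderm pairs (adjusted p = 0.00603, 0.000135 and 0.000132, edgeR) and higher in YFP-positive cardiac than in hematopoietic mesoderm (log2 fold change 3.25 ± 0.57, adjusted p = 0.0148, edgeR), in 12 of 12 fits each. With limma voom the last value was 0.612. The endoderm marker list summed to 67.4 to 96.0 CPM in the YFP-positive and 35.2 to 53.3 CPM in the YFP-negative cardiac libraries, where Foxa2, Apoa4 and Amn were at 0, and to 33.5 to 115 CPM in hematopoietic mesoderm. The part of endoderm cells in the Cer1 reads of the YFP-positive fraction was not tested. Of the other 8 antagonists and modulators tested, 1 was called in any pair, Twsg1, at 299 ± 13.7 CPM in endoderm and 150 ± 64.7 CPM in hematopoietic mesoderm (adjusted p = 0.0438, edgeR; 0.0523 with the replicate number as a block), named after its values were seen. That call held in 5 of the 12 fits, and without endoderm replicate 3 the adjusted p was 0.132 (edgeR).

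**Figure D5:**
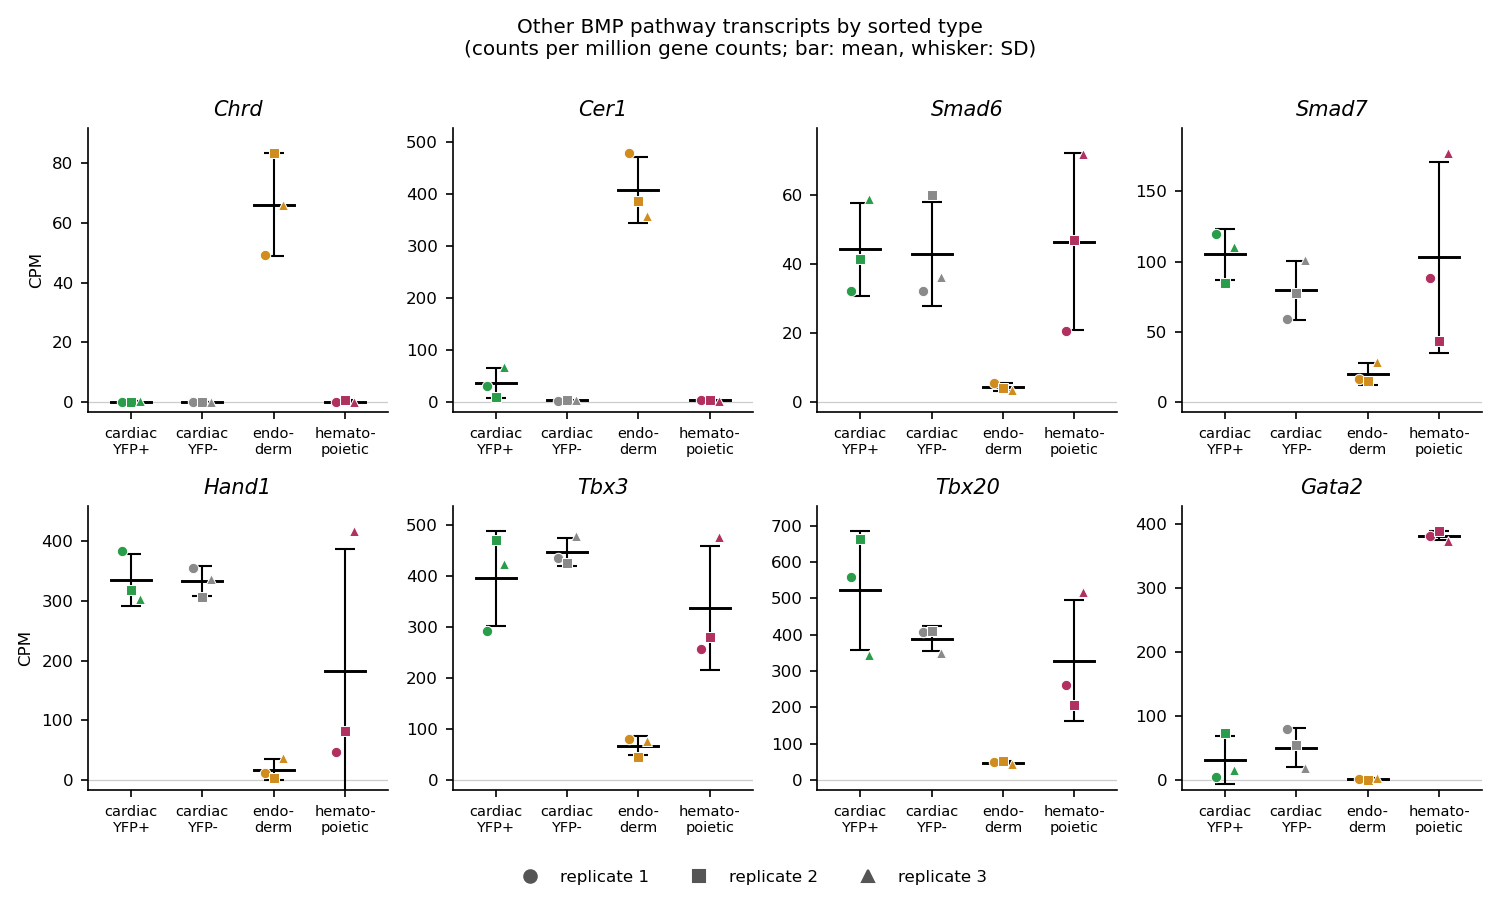
Levels of 8 other BMP pathway transcripts (y axis, CPM) in the 4 sorted types (x axis), 1 point per library with its shape giving the replicate, a bar at the mean and whiskers at 1 SD. Chrd and Cer1 are highest in endoderm (66.2 and 407 CPM), and the endoderm libraries are the lowest for Smad6, Smad7, Hand1, Tbx3, Tbx20 and Gata2.

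Among the co-receptors, Tgfbr3, the betaglycan that also presents BMPs, was at 278 ± 26.5 CPM in endoderm, 156 ± 78.6 CPM in hematopoietic mesoderm, and 83.3 ± 24.2 and 39.8 ± 9.52 CPM in YFP-positive and YFP-negative cardiac mesoderm. It was called between endoderm and YFP-negative cardiac mesoderm (adjusted p = 0.00224, edgeR) in 12 of 12 fits. The calls between endoderm and YFP-positive cardiac mesoderm (0.0314) and between hematopoietic and YFP-negative cardiac mesoderm (0.0340) were lost with the replicate number as a block (adjusted p = 0.0555 and 0.0691, edgeR), and without endoderm replicate 2 they were 0.137 and 0.0696. Rgma, a BMP co-receptor, gave 0, 3 and 0 reads in hematopoietic mesoderm, 225, 22 and 31 in YFP-positive cardiac mesoderm, 55, 330 and 186 in YFP-negative cardiac mesoderm and 202, 372 and 152 in endoderm. Against hematopoietic mesoderm it was not called in the YFP-negative cardiac pair (adjusted p = 0.0591, edgeR). It was called in the YFP-positive cardiac and endoderm pairs (adjusted p = 0.0495 and 0.0212, edgeR), the first lost with the block (0.0939), and they held in 2 and 8 of the 12 fits. Without endoderm replicate 2 they were 0.0903 and 0.0728. Smad5, a carrier of the BMP signal, was at 220 ± 2.61 CPM in endoderm and 101 ± 5.45 CPM in hematopoietic mesoderm (adjusted p = 0.0235, edgeR; 0.0845 without endoderm replicate 2), and was named after its values were seen. None of the 5 other receptors, 3 other ligands or 4 proteases tested was called in any pair.

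Genes with the pattern most like each of the 10 across the 12 libraries were sought among 9021 genes, by the root mean square difference between log2(CPM + 1) values after each gene's own mean was subtracted. The likeness is a description, since all points share the libraries and their depth. Bmp4, which itself varied by 1.43 around its mean on this scale, was closest to Ahnak (0.52) and Igfbp4 (0.59). Ahnak was at 449 ± 243, 423 ± 91.8 and 468 ± 117 CPM in the mesoderm types and 45.7 ± 31.9 CPM in endoderm. Msx2, which varied by 2.05, was closest to Adra2b (0.54) and to Wnt5a (0.60), a Wnt ligand of posterior and lateral mesoderm at 164 ± 75.2, 252 ± 9.91 and 26.8 ± 23.9 CPM in the mesoderm types and 14.0 ± 9.38 CPM in endoderm. Bmp5, which varied by 1.83, was closest to Glis1 (0.94) and to Bmper (0.98), a secreted BMP-binding protein of the pathway list.

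Like those of Bmp4 and Msx2, the nearest patterns of the other 7 genes were those of genes outside the pathway list. Bmp2 was nearest to Tmed7 and Slc35a3 (0.34 and 0.35), Bmp7 to Ift20 and Aftph (0.33 and 0.38), Bmpr1a to Rtn4 and Slf2 (0.14 and 0.15), and Bmpr2 to Ebna1bp2 and BC005561 (0.21 and 0.21). Id1 was nearest to Cinp and Kcnmb4 (0.68 and 0.71), Id2 to Slc4a2 and Acsl1 (0.58 and 0.74), and Id3 to Gas5 and Pfn1 (0.13 and 0.15). The small differences of Bmpr1a, Bmpr2 and Id3 go with small variation of their own (0.28, 0.43 and 0.42).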

How the data were processed

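RNA of 12 libraries, 3 of each of 4 cell types, was purified with the Agilent Absolutely RNA nanoprep kit and amplified with NuGEN Ovation Ultralow V2 and the RNA-seq system V2, per the labels' protocols. The authors deposited raw read counts per versioned Ensembl gene with 5 tallies of reads not assigned to genes. The submitters' processing notes name STAR 2.5.0a, Picard, HTSeq 0.6.0, DESeq2 and mm10. The annotation release and strand setting are not given in the sources used here. Genes took 18.3% to 21.5% of the tallied reads, reads in no gene 34.5% to 43.6% and reads with more than 1 alignment 35.1% to 44.8%, so that genes with near-identical copies may be undercounted. The limits for a count of 0 cover counting error only, while the intervals of ratios come from the edgeR fit and include the spread between libraries.

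Groups and replicate numbers come from the titles. Nothing says that replicates were separate litters, so p-values measure the spread between these libraries, which may be technical. Counts were analysed in R 4.3.3 with edgeR 4.0.16 (default expression filter, 14170 genes kept, TMM scaling, 1 coefficient per type, 8 residual degrees of freedom, two-sided quasi-likelihood tests). SEs were derived from the fold change and the F statistic. The script was tested on simulated data. Exon lengths and gene positions are from GENCODE M21 (GRCm38). Hjv was entered as Hfe2, its symbol in the gene name table. Alternatives were RLE scaling, no filter, a mean of at least 5 CPM, DESeq2 1.42.0, fits restricted to a pair of types, a block for the replicate number, limma 3.58.1 voom with quality weights, and each library left out.

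All 10 genes are described. Of the pathway list, the plan was to name at most the 6 called genes with the lowest p in a pair. That limit was not kept, and every called gene is named, with Smad5, Smad7 and Twsg1 added after their values were seen. For similar patterns, genes with a mean of at least 10 CPM and a symbol were compared, predicted genes and pseudogenes left out, with 1 added to each CPM. The members, lists and alternatives were chosen with earlier results of these data known.

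Same-numbered libraries of the 4 types carry a shared date in their deposited names; what it marks is not stated. Deviations from the type means correlated across genes by 0.0146 on average (-0.0151 to 0.0371) over 18 same-numbered pairs and by -0.00729 over others, and 11 of 12 libraries correlated best with their own number. Libraries of 1 type differed by at least 17.1 in chi-square per degree of freedom, so none was treated as a duplicate.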

Additional observations from a re-analysis of the deposited data

How the results depend on the processing

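Bmp4 was lower in endoderm than in each mesoderm type in all alternatives. How many of the 10 genes were called moved with the tool. In the 4-type test, 1 was called, against 2 without the expression filter, 4 with DESeq2, 4 with limma voom and 0 to 4 in fits that left out a library (0 without endoderm replicate 2, 4 and 3 without hematopoietic replicates 1 and 3). Between YFP-positive cardiac mesoderm and endoderm, 1 became 2 without the filter, 2 with the replicate block, 4 with DESeq2, 4 in the fit of only the 2 types, 4 with limma voom and 0 to 4 in fits without a library. The share of all genes called there was 1.54% in the main fit, 6.56% with DESeq2, 5.03% with only the 2 types and 7.97% with limma voom. Between YFP-negative cardiac mesoderm and endoderm, 1 became 2 without the filter, 3 with DESeq2, 4 in the fit of only the 2 types, 4 with limma voom and 0 to 2 without a library. The share of all genes called there was 1.31% in the main fit, 4.27% with DESeq2, 9% with only the 2 types and 12.8% with limma voom. Between YFP-positive cardiac and hematopoietic mesoderm, 0 became 2 with DESeq2 and 0 to 2 without a library (1 and 2 without hematopoietic replicates 1 and 3). Between endoderm and hematopoietic mesoderm, 1 became 2 with DESeq2 and 1 to 2 without a library. Between the cardiac fractions, the log2 fold change of Bmp5 ran from -0.19 to 0.76 and that of Msx2 from -0.11 to 0.25 when a library was left out, and 8 of the 10 genes kept their sign. The cause of these moves was not tested. The replicate block changed no other call of the 10 genes. RLE scaling moved the median of all genes by at most 0.04 on the log2 scale and changed no count of members called. Of the pathway list, cardiac against hematopoietic calls moved from 2 to 0 (limma voom), 1 (block) or 8 (DESeq2) for the YFP-positive and from 1 to 0 (block), 2 (limma voom) or 6 (DESeq2) for the YFP-negative fraction. In YFP-negative cardiac mesoderm against endoderm limma voom gave 19 pathway calls in place of 8, and between the cardiac fractions DESeq2 gave 2 in place of 0. In the former pair limma voom called 12.8% of all genes, against 1.31% in the main fit. Where no share of all genes is given for an alternative, a moved count describes the setting and is no result about these genes. A count of 0 allows up to 3 reads, or 0.380 to 0.671 CPM before scaling, which limits Id1, Id2 and Msx2 in hematopoietic mesoderm. With 3 libraries a type the intervals of Id1, Id2 and Bmp5 span several-fold.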
